A study of Homo sapiens with 18 samples.

Results

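Cytosolic ribosomal protein genes encode the protein part of the ribosome that translates nuclear messages, and they were taken here as every probe whose annotated symbol is RPL or RPS with a number and at most 1 suffix letter A, L, X or Y, or RPLP0, RPLP1, RPLP2 or RPSA. The kinases of the RPS6K family, RPS27L and pseudogenes with a P number were left out. The rule found 70 of the 12696 named genes of the deposited table, read by 115 of its 49576 probes. Genes that fit the rule but have no probe named here were not analysed. Of the 115 probes, 114 probes of 69 genes passed the detection filter, and 109 probes were detected on all 18 arrays. The single probe of RPL10 did not pass, with detection on 1 array, and RPL10 is not described further.

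The arrays were Illumina bead arrays, which read biotin-labelled RNA with one bead type per probe. The samples were the Burkitt lymphoma cell lines Raji and DG75, each as an untreated control, after 1 h with 50 µM Bay-11 and after 1 h with 75 µM TPCK, with 3 arrays in each of the 6 groups. Bay-11 blocks the phosphorylation of IκB, and TPCK is a chloromethyl ketone that inhibits serine proteases and also blocks NF-κB activation. The study asked what NF-κB does in cell death of B lymphoma cells that does not need caspases. Its design text names TPCK for Raji, while the sample titles give it for both lines. The labels do not state whether replicates were cultured apart, so p-values measure the spread between arrays, which may be technical. The deposited table gives its arrays numbers but no replicate numbers, and arrays are called here by those numbers, with 13 to 18 the controls and 1 to 12 the treated arrays. A batch behind these numbers and the treatments cannot be told apart.

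A ribosome is built from a small subunit, which decodes the message, and a large subunit, which joins amino acids and carries a flexible stalk of acidic P proteins. Most of its proteins are needed in equal numbers, their genes are among the most strongly transcribed in growing cells, and many of the messages start with a C followed by a run of C and T, the terminal oligopyrimidine element through which mTOR signalling and LARP1 control their translation. Several ribosomal protein genes also carry small nucleolar RNAs in their introns. Box C/D RNAs guide methylation of ribosomal RNA and box H/ACA RNAs guide its pseudouridylation. MYC, the oncogene that is translocated in Burkitt lymphoma, drives transcription of ribosomal components.

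The first bases of the genes show this element. In the RefSeq promoter table (GRCh38.p14), 59 of the 70 genes had an entry. On the transcribed strand, a C followed by at least 4 bases that are each C or T began exactly at the annotated start in 40 of the 59 (67.8%), against 4.04% of all 27305 promoters, 5.48% of the 8747 promoters of genes with a kept probe and 7.25% of the 69 mitochondrial ribosomal protein genes. Within 5 bases of the start it was found in 48 of the 59 (81.4%), against 21.1% of all promoters. The 11 without it in that window were RPL10, RPL10L, RPL13, RPL17, RPL27, RPL6, RPL9, RPS15, RPS26, RPS29 and RPS4X. The matches are descriptions of the letters near 1 annotated start per gene. A window of 100 bases before the start and 15 from it is shown for 6 genes whose values are described below, with capitals from the first matching C within 5 bases of the start to the end of its run of C and T. In RPL13A, RPL34 and RPL29 the C and T letters also go on upstream of the capitals. The 6 were chosen as follows: RPS25 has the brightest probe, RPS12 and RPL13A hold small nucleolar RNAs, and RPS23, RPL34 and RPL29 are among those that differed most between the lines.
RPS25, chr11:119018329-119018443, minus strand: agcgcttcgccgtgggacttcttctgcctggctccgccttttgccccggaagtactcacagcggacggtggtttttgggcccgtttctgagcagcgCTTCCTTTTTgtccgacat
RPS12, chr6:132814469-132814583, plus strand: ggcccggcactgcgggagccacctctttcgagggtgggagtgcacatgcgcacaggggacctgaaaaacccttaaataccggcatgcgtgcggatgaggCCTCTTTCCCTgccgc
RPL13A, chr19:49487508-49487622, plus strand: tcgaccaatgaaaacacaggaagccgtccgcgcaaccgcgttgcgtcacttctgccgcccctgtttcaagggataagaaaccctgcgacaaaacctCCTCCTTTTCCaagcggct
RPS23, chr5:82278340-82278454, minus strand: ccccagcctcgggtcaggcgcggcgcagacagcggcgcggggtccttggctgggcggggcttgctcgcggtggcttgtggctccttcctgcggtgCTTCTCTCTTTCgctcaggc
RPL34, chr4:108620476-108620590, plus strand: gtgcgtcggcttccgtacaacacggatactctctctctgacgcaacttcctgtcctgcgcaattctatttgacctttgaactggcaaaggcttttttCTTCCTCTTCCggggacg
RPL29, chr3:51995881-51995995, minus strand: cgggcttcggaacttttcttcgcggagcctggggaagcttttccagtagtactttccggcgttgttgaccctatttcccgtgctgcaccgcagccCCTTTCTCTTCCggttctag

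Ribosomal protein probes gave some of the brightest signals on these arrays. After background correction and quantile normalisation, the median of the probes' mean log2 signals was 12.76, and 74 probes of 52 genes had means above 12, where 455 of all 17652 kept probes did. Between 29 and 36 of the 100 brightest probes of an array belonged to them. They made up 0.646% of the kept probes and took 8.04% to 11.1% of the background-corrected signal of an array. A probe's brightness also depends on its sequence, so these values do not order the amounts of different messages. The brightest probes were those of RPS25 (mean log2 signal 14.28), RPS10 (14.20), RPS6 (14.20), the substrate of the S6 kinases, RPL41 (14.19) and RPL6 (14.16). The dimmest kept probes were single probes of RPL36A (4.87), RPL37 (5.02), RPL10L (5.63), a paralog of RPL10 known from testis, RPL37A (5.99) and RPL32 (6.01). RPL36A, RPL37, RPL37A and RPL32 also had brighter probes, at 8.17, 6.82, 13.10 and 13.90.

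**Figure D1:**
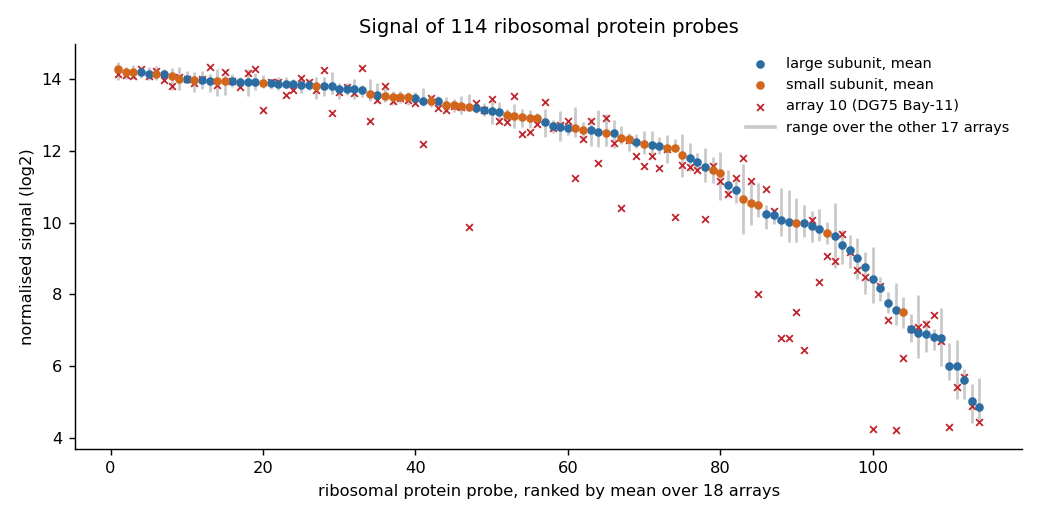
Normalised log2 signal of the 114 kept ribosomal protein probes, ranked by their mean over 18 arrays; blue points are large subunit means, orange points small subunit means, grey bars the range over 17 arrays and red crosses the values on array 10. Most probes lie above 12 with short ranges, and array 10 falls far below the others for a few probes.

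The share of the signal taken by these probes was, in Raji, 9.90%, 10.9% and 11.1% in the controls, 9.51%, 9.61% and 10.1% after Bay-11, and 8.95%, 9.02% and 9.72% after TPCK. In DG75 this share was 9.60%, 9.64% and 10.95% in the controls, 8.04%, 8.59% and 9.79% after Bay-11, and 8.57%, 8.93% and 10.3% after TPCK. The Raji TPCK arrays lay below all Raji controls, and the other treated groups overlapped their controls. The mean raw signal of an array was 171 to 202 in the Raji controls, 206 to 256 after Bay-11 and 243 to 282 after TPCK, and its part in the lower share was not tested. The share itself was given no test. In bulk RNA, fewer cells of a type and less RNA per cell cannot be told apart.

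Neither inhibitor gave a ribosomal protein probe that passed the test, in either line. By limma with Benjamini-Hochberg adjustment over all 17652 kept probes and an adjusted p below 0.05, 0 of 114 were called after Bay-11 in Raji, where 1.33% of all kept probes were called, 0 after TPCK in Raji (0.363%), 0 after Bay-11 in DG75 (0.374%) and 0 after TPCK in DG75 (0.419%). Counts of 0 among 114 probes are close to those backgrounds and do not set these genes apart. At an unadjusted p below 0.05 there were 6, 5, 15 and 0 probes in the same order, where 17.4%, 6.88%, 18.4% and 9.92% of all kept probes passed. Without array 10, described below, these became 12 after Bay-11 in Raji (22.5% of all kept probes) and 6 after Bay-11 in DG75 (9.36%). With 1 array of the comparison left out, the DG75 Bay-11 count ranged from 6, without array 10, to 36, without array 12. The share of all kept probes at this threshold without array 12 is not given here, so the 36 is not read as a result about these genes. The median differences were -0.06, -0.05, -0.06 and 0.01 on the log2 scale, and those of all kept probes were -0.003, 0.006, 0.02 and -0.0001. The 71 large subunit probes (medians -0.03, -0.05, -0.04 and 0.01) and the 43 small subunit probes (-0.07, -0.05, -0.08 and 0.02) gave like values.

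Within the quantile-normalised values, the errors allow a bound on most of these differences. The bound does not cover the shifts with other normalisations given below. The 95% interval lay within 1 log2 unit of 0 for 105, 107, 98 and 108 of the 114 probes, and within 0.5 for 82, 85, 69 and 85. The median residual SD was 0.138 for these probes and 0.127 for other probes with means above 12. A change of less than 0.5 in a single probe was therefore often not detectable with 3 arrays a group.

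Centring the arrays on their median in place of quantile normalisation moved the medians of all kept probes to 0.29, 0.50, 0.27 and 0.27, and those of the ribosomal protein probes to 0.20, 0.38, 0.14 and 0.16. Relative to all kept probes, the ribosomal protein median was lower in all 4 comparisons with centring, and in 3 of 4 with quantile normalisation, the exception being TPCK in DG75. With centring 2, 4, 1 and 0 ribosomal protein probes were called, all higher, where 5%, 16.9%, 0.142% and 0.204% of all kept probes were called. With no normalisation between arrays 1 was called after Bay-11 and 19 after TPCK in Raji, all higher, where 4.42% and 32.7% of all kept probes were called.

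**Figure D2:**
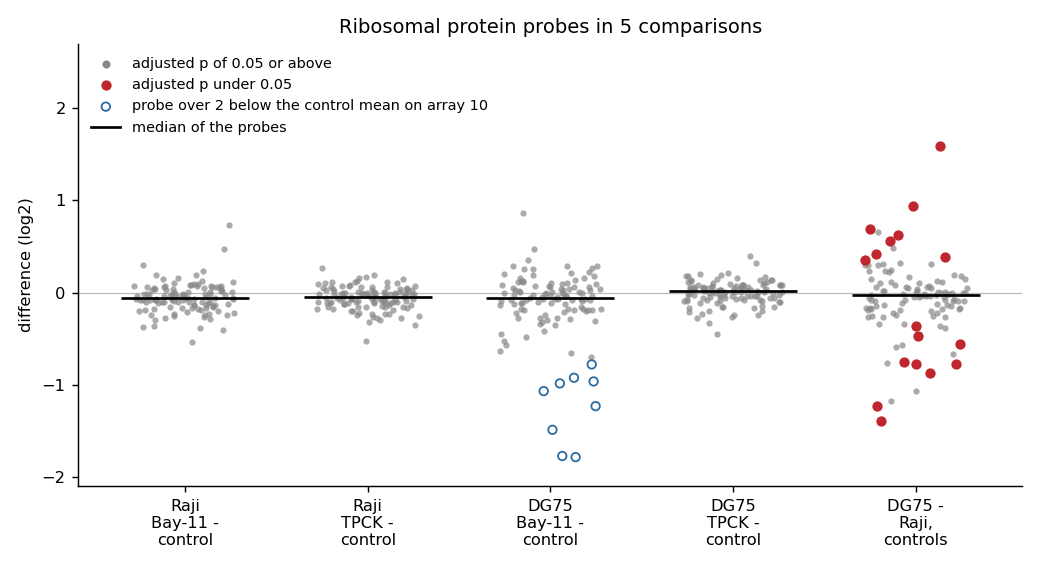
Log2 difference of each of the 114 ribosomal protein probes in 4 treatment comparisons and between the untreated lines; grey points have an adjusted p of 0.05 or above, red points an adjusted p below 0.05, blue rings the probes over 2 below the control mean on array 10, and black lines the medians. Red points appear in the comparison of the lines, where 17 probes were called.

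Members with roles in signalling had differences in the same range. RPS3 is a small subunit protein that also binds the RELA subunit of NF-κB. Its log2 signal was 14.04, 13.89 and 14.06 in the Raji controls, 13.77, 13.95 and 13.79 after Bay-11, and 13.85, 14.10 and 14.10 after TPCK. The groups overlap, and the difference was -0.16 (95% interval -0.54 to 0.21) after Bay-11 and 0.02 (-0.35 to 0.40) after TPCK. In DG75 the RPS3 signal was 14.10, 13.97 and 13.87 in the controls, 13.15, 13.95 and 13.90 after Bay-11 and 14.11, 13.87 and 13.77 after TPCK, with 13.15 coming from array 10.

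RPL5 and RPL11 bind and inhibit the p53 ligase MDM2, together with 5S ribosomal RNA, when ribosome assembly fails. RPL5 read 13.18, 13.18 and 13.20 in the Raji controls, 13.01, 13.05 and 12.99 after Bay-11, and 13.29, 13.24 and 12.97 after TPCK. Its Raji Bay-11 arrays lay below the controls, with a difference of -0.17 (95% interval -0.44 to 0.11, adjusted p = 0.538 by limma). The other 3 treatment differences of RPL5 were between -0.03 and 0.01. The 2 probes of RPL11 gave differences between -0.13 and 0.02 over the 4 comparisons. Of the 7 probes of the list of MDM2-binding members (RPL5, RPL11, RPL23, RPL26 and RPS7), 0 were called in any treatment comparison, with medians of -0.17, -0.10, -0.11 and 0.01. RPL26 had the lowest differences of that list in Raji, at -0.27 after Bay-11 (adjusted p = 0.190) and -0.23 after TPCK (adjusted p = 0.671).

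RPS19, the gene first linked to the inherited anaemia of Diamond and Blackfan, had differences of -0.07, -0.02, -0.07 and -0.14. In the list of 28 probes of 17 such anaemia genes, 0 were called in the 4 comparisons. RPS6, read by both of its probes, differed by between -0.09 and 0.17. The 7 probes of 5 members with named roles outside the ribosome (RPS3, RPL22, RPL13A, RPS6 and RPS14) and the 4 probes of the P stalk genes RPLP1 and RPLP2 gave 0 calls.

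TPCK against Bay-11 also gave 0 of 114 called in Raji, where 0.374% of all kept probes were called, and 0 of 114 in DG75, where 0.153% were. There were 2 and 14 probes at an unadjusted p below 0.05, where 12.4% and 10.7% of all kept probes passed. Without array 10 these became 4 (16.6%) and 2 (5.11%), and the DG75 count reached 26 without array 12, for which no share of all kept probes is given here. The difference between the lines in the Bay-11 effect gave 0 called against 0.0227% of all kept probes, and that in the TPCK effect 0 against 0.00567%, with 4 (6.39% of all kept probes) and 1 (5.35%) at an unadjusted p below 0.05. Without array 10 the latter became 3 (7% of all kept probes).

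One probe of RPL32, a large subunit protein, stood closest to a treatment call. RPL32 has 4 kept probes, and this one (ILMN_1782167) is singled out here after its values were seen. It read 6.72, 6.66 and 6.22 in the Raji controls, 7.45, 6.97 and 7.38 after Bay-11, and 6.51, 6.43 and 6.65 after TPCK. In DG75 it read 6.70, 6.48 and 6.85 in the controls, 7.10, 7.53 and 7.99 after Bay-11, and 6.80, 7.04 and 7.15 after TPCK. All Bay-11 arrays of each line lay above all controls of that line, and the Raji TPCK arrays lay within the range of the controls.

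The Bay-11 difference of that RPL32 probe was 0.73 ± 0.21 (SE, as after each ± sign here) in Raji, with an adjusted p of 0.0935 by limma, and 0.86 ± 0.21 in DG75, with an adjusted p of 0.0868. With array 10 left out it was called in both lines, at 0.73 in Raji (adjusted p = 0.0312, 3.73% of all kept probes called) and 1.08 in DG75 (adjusted p = 0.0288, 0.21% called). The probe was also called in Raji with median centring (1.15), with no normalisation between arrays (1.21), with array weights (0.76) and in the values of the series matrix (1.42). It was not called in Raji when 1 array of that comparison was left out at a time. With no normalisation it was also called after TPCK in Raji (0.70), where 32.6% of all kept probes were called higher. In the series matrix, with the replicate number as a block, TPCK minus Bay-11 in Raji was -1.08 (adjusted p = 0.0430 by limma), where 1 probe was called with the block and 0 without it. The 3 other RPL32 probes differed after Bay-11 by 0.13, -0.30 and -0.17 in Raji and by 0.04, -0.48 and 0.15 in DG75. The files used here do not give the transcripts the probes read.

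On array 10, one of the DG75 Bay-11 arrays, a few ribosomal protein probes lost most of their signal. Of 102 ribosomal protein probes with a DG75 control mean above 8, 9 probes of 7 genes (8.82%) were over 2 log2 units below that mean on array 10, where 270 of all 5216 such probes (5.18%) were. On each of the 17 other arrays, the count of bright ribosomal protein probes that far below the control mean of the same line was 0. The dimmer RPL8 probe fell by 4.29, from a control mean of 8.55 to 4.26, and arrays 11 and 12 of the same group read 7.77 and 8.24. The dimmer probe of RPL13 read 8.25 in the control mean, 4.21 on array 10, and 7.56 and 7.64 on arrays 11 and 12. For both, the detection p-value on array 10 (0.722 and 0.936) placed them with background.

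RPS2, a small subunit protein at the mouth of the message channel, read 13.48 in the control mean and 9.88 on array 10, against 13.45 and 13.40 on arrays 11 and 12. The dimmest of 3 probes of RPL6 read 10.45 and 6.45 in the same order, against 10.30 and 10.13. Against the control mean, array 10 differed by -2.99 and -2.85 for the probes of RPL29, by -2.36 and -2.33 for those of RPS7, and by -2.03 for one probe of RPS9. Just outside the limit of 2, the difference was -1.92 for the other RPS9 probe and -1.86 for 1 of the 3 RPL17 probes. Another 4 bright probes lay between -1.65 and -1.12.

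Sister probes of the same genes were not all low on that array. The other probes of RPL6 differed from the control mean by 0.65 and -0.06, the brighter probe of RPL8 by 0.28, and the other probe of RPL13 by 0.02. Probes of RPL6, RPL8 and RPL13 thus disagreed on array 10, while both probes of RPL29, RPS7 and RPS9 were low. The cause was not tested.

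**Figure D3:**
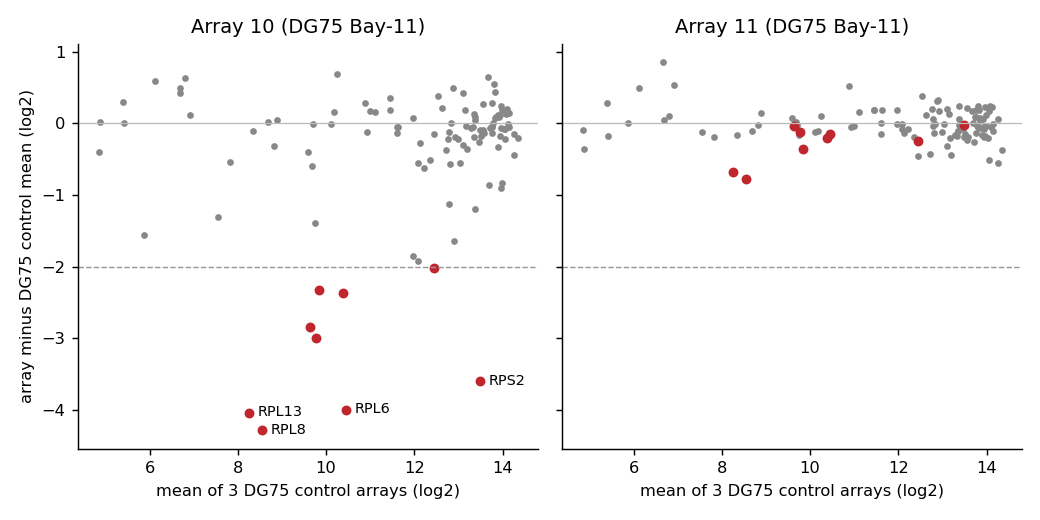
Each ribosomal protein probe on array 10 (left) and array 11 (right), both DG75 Bay-11, as its log2 difference from the mean of 3 DG75 control arrays, plotted against that mean; red points are the 9 probes over 2 below it on array 10, and the dashed line marks 2 below. The same 9 probes lie near the others on array 11.

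The low end of the DG75 Bay-11 comparison moved with array 10. With it the lowest differences were -1.79 for RPL8, -1.78 for RPL13, -1.49 for RPL6, -1.23 for RPS2 and -1.07 for RPL29, and none was called. Without it these became -0.54, -0.64, -0.24, -0.05 and -0.11. The ribosomal protein median went from -0.06 to -0.02, the number of intervals within 1 log2 unit from 98 to 111, and the number of probes with a residual SD over 0.5 from 7 to 0. Leaving out array 12 instead, which gives array 10 more weight, called 8 of 114 probes, of which 7 were lower, where 9.2% of all kept probes were called. These included RPL8 at -2.53, RPL13 at -2.36 and both RPS7 probes at -1.35 and -1.28.

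The untreated lines differed in 17 probes of 15 ribosomal protein genes, 8 higher and 9 lower in DG75, by limma at an adjusted p below 0.05. That is a smaller share than the background of the comparison, in which 32.8% of all kept probes were called, 17.4% higher and 15.4% lower. By subunit, 12 of 71 large subunit probes and 5 of 43 small subunit probes were called. The median of the 114 probes was -0.03 and that of all kept probes 0.03. With median centring 10 probes were called, 8 higher and 2 lower, where 23.9% of all kept probes were called, 17.4% higher and 6.45% lower. With no normalisation between arrays 7 were called, 5 higher and 2 lower, where 19.8% of all kept probes were called, 14.3% higher and 5.45% lower.

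RPS23, a small subunit protein beside the decoding centre, differed most. Its log2 signal was 9.98, 9.73 and 9.89 in the Raji controls and 11.40, 11.49 and 11.47 in the DG75 controls. It read 9.69 to 9.92 on the Raji treated arrays and 11.32 to 11.81 on the DG75 treated arrays. The 9 arrays of each line stood apart, and DG75 was higher by 1.59 ± 0.12 (SE), with an adjusted p of 1.56e-08.

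RPL34, a large subunit protein, was read in opposite directions by its 2 probes. One (ILMN_1706873) read 10.30, 10.24 and 10.32 in the Raji controls and 8.92, 9.01 and 8.74 in the DG75 controls. Its difference was -1.39 ± 0.13, lower in DG75, with an adjusted p of 3.04e-07. The other (ILMN_1774823) read 10.68, 10.74 and 10.65 in Raji and 11.03, 11.01 and 11.28 in DG75, a difference of 0.42 ± 0.12 with an adjusted p of 0.0145. Both probes kept the 9 arrays of one line apart from the 9 of the other, so no single direction can be given for the RPL34 message.

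RPL28, a large subunit protein, read 7.19, 7.62 and 7.28 in the Raji controls and 6.01, 6.31 and 6.07 in the DG75 controls. The difference was -1.23 ± 0.14 (adjusted p = 2.55e-06). It was smaller between the treated lines, at -0.63 with Bay-11 and -0.75 with TPCK, and the difference between the lines in the effect of either treatment did not pass the test.

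RPS29, which is mutated in some families with Diamond-Blackfan anaemia, was higher in DG75 by 0.94 ± 0.13 on the dimmest of its 4 probes (adjusted p = 1.68e-05). That probe read 10.03, 10.13 and 10.02 in the Raji controls and 10.94, 11.06 and 10.98 in the DG75 controls. The 3 brighter RPS29 probes, with means between 13.25 and 13.96, differed by -0.03, -0.09 and -0.002.

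RPL39L, the retrocopy of RPL39 known from testis and from tumour cells, was higher in DG75 on both probes. One read 9.25, 8.94 and 8.87 in the Raji controls and 9.59, 9.80 and 9.74 in the DG75 controls, a difference of 0.69 ± 0.14 (adjusted p = 0.000981). The other differed by 0.62 ± 0.14 (adjusted p = 0.00224). RPL39L and RPL34 were the genes with several kept probes that were all called. RPL39L shares most of its coding sequence with RPL39, and reads of one by a probe of the other cannot be told apart here. The RPL39 probe differed between the untreated lines by 0.06 (95% interval -0.26 to 0.37).

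Among the other called probes, RPLP1, an acidic protein of the stalk that recruits elongation factors, was higher in DG75 by 0.56 ± 0.11 on 1 of 3 probes. RPL12, at the base of that stalk, was higher by 0.38 ± 0.14 on 1 of 2, and RPS15A, a small subunit protein, by 0.35 ± 0.13 on 1 of 3. Lower in DG75 were RPS24 (-0.87 ± 0.18, 1 of 2 probes), RPL13 (-0.78 ± 0.16, 1 of 2), RPS21 (-0.78 ± 0.15) and RPL37A (-0.76 ± 0.20, the dim one of 2). RPL22, which also binds the EBER RNAs of Epstein-Barr virus, differed by -0.56 on its 1 probe, at 12.16, 12.21 and 12.10 in the Raji controls and 11.61, 11.66 and 11.53 in the DG75 controls. RPL7 (-0.37 ± 0.12) was also lower. RPL32 differed by -0.47 ± 0.17 on 1 of 4 probes (ILMN_2400143), which is not the probe that stood closest to a treatment call, and its 3 other probes differed by 0.14, -0.57 and -0.02. RPL7 is a member and 1 of the 17 called probes, but lies outside the rule by which members are named with values here. It is described because its values were seen, to complete the account of the 17.

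The 17 differences were looked for again between the treated lines, in the same fit. The levels of the treated arrays do not enter the difference of the untreated lines. Their spread entered its SE and calls, so the tests are not independent. The 17 probes were chosen by their call between the untreated lines. The share of all probes called there that were called again is not given here. Counts of repeated calls are therefore not read as a result about these genes. All 17 had the same sign between the lines after Bay-11 and after TPCK. By limma 16 of them were called among the Bay-11 arrays, where 38% of all kept probes were called, and 15 among the TPCK arrays, where 32.3% were. The RPL32 probe ILMN_2400143 was not called in either (adjusted p = 0.551 and 0.0725), and RPL7 was not called after TPCK (adjusted p = 0.101). For 13 of the 17 probes all 9 arrays of one line lay apart from all 9 of the other. The 9 include the controls by which the probes were chosen. The share of all kept probes that lay apart in this way is not given here.

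**Figure D4:**
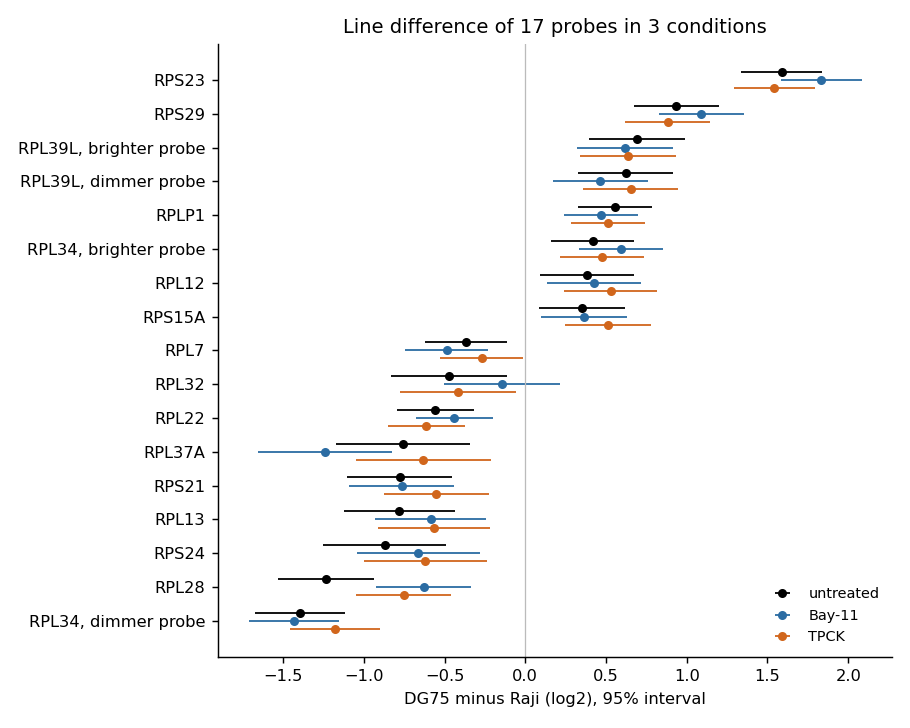
DG75 minus Raji in log2 units with 95% intervals for the 17 probes called between the untreated lines, in untreated (black), Bay-11 (blue) and TPCK (orange) arrays. All points of a probe lie on the same side of 0, and the 2 probes of RPL34 lie on opposite sides.

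The fit shares 1 spread per probe over all 6 groups, so array 10 also entered the test of the untreated lines. Without it 27 probes of 20 genes were called between the untreated lines, 12 higher and 15 lower, where 38.3% of all kept probes were called, and the 17 probes were all among them. RPL29, a large subunit protein, read 10.96, 10.66 and 10.89 on one probe in the Raji controls and 9.64, 9.84 and 9.84 in the DG75 controls. The RPL29 differences of -1.06 and -1.18 on its 2 probes had adjusted p-values of 0.112 and 0.0741 with array 10, and of 1.32e-06 and 4.99e-07 without it. RPS7, one of the MDM2-binding members, differed by -0.77 and -0.59 on its 2 probes. Its adjusted p-values went from 0.114 and 0.250 to 6.68e-05 and 0.000233. RPL13 then had both probes called in opposite directions, at -0.78 and 0.65.

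Probes of 1 gene did not always give the same difference between the lines. Of 33 genes with more than 1 kept probe, 10 had a called probe in the untreated lines, and of these 10, 2 had all probes called and 8 had 1 of several. In 5 of the 10 (RPL13, RPL32, RPL34, RPS15A and RPS29) the probes had opposite signs. With 1 probe per gene, the brightest, 8 of 69 genes were called, where 39% of all genes were.

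Ribosomal protein genes that host small nucleolar RNAs offered a second readout of the same loci. By the reference annotation 25 of the 70 genes held 52 small nucleolar RNA genes, 27 of these had a kept probe, and 26 probes could be set beside a kept probe of their host, for 14 hosts. The host was read by its brightest kept probe. The labelling kit primes on poly(A) tails, which mature small nucleolar RNAs lack, and the sources used here do not say which RNA form these probes read. The hosts gave 0 called in all 4 treatment comparisons. The small nucleolar RNA probes gave 3 higher and 0 lower after Bay-11 in Raji, 2 higher and 5 lower after TPCK in Raji, 3 higher and 0 lower after Bay-11 in DG75, and 1 higher and 7 lower after TPCK in DG75. Among all kept probes, 0.77% were higher and 0.555% lower after Bay-11 in Raji, 0.227% and 0.136% after TPCK in Raji, 0.21% and 0.164% after Bay-11 in DG75, and 0.136% and 0.283% after TPCK in DG75. With median centring the TPCK counts became 7 higher and 3 lower in Raji, where 16.8% of all kept probes were higher and 0.0736% lower, and 2 higher and 4 lower in DG75, where 0.147% were higher and 0.0567% lower. With no normalisation between arrays they were 7 higher and 2 lower in Raji, where 32.6% of all kept probes were higher and 0.051% lower, and 0 of either in DG75, where 0.0906% were higher and 0.017% lower.

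RPS12, a small subunit protein, holds SNORA33, SNORD100 and SNORD101. The RPS12 probe read 14.29, 14.22 and 14.20 in the Raji controls and 14.16, 14.14 and 13.88 after TPCK. SNORA33 read 9.48, 9.55 and 9.56 in the same controls and 7.82, 7.73 and 8.24 after TPCK. The SNORA33 groups do not overlap, with differences of -1.60 ± 0.14 in Raji (adjusted p = 1.84e-05) and -1.51 ± 0.14 in DG75 (adjusted p = 1.31e-05).

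SNORD100, in the same host, differed by -1.04 in Raji and -1.68 in DG75, and both were called. The RPS12 probe differed by -0.18 (95% interval -0.49 to 0.14) and -0.27 (-0.58 to 0.05). The difference between host and guest was not tested. SNORD101 was not called in either line with all arrays, at -0.98 and -1.06.

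RPS13, a small subunit protein, holds copies of SNORD14, the box C/D RNA needed to process the 18S precursor. Its own probe read 13.47, 13.47 and 13.50 in the Raji controls and 13.38, 13.45 and 13.47 after TPCK. SNORD14A read 8.08, 7.69 and 8.61 in the Raji controls and 6.37, 6.71 and 6.68 after TPCK, a difference of -1.54 ± 0.24 (adjusted p = 0.00469). In DG75 SNORD14A read 7.76, 7.50 and 7.76 in the controls and 5.84, 5.36 and 5.65 after TPCK, a difference of -2.06 ± 0.24 (adjusted p = 0.000168), and the RPS13 probe differed by 0.06 (95% interval -0.19 to 0.31). SNORD14B of the same host differed by -0.62 in Raji, which was not called, and by -1.42 in DG75 (adjusted p = 8.22e-05).

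RPS3A, a small subunit protein, holds SNORD73A. The SNORD73A difference was -1.28 in Raji (adjusted p = 0.00262) and -1.62 in DG75 (adjusted p = 0.000151), and that of the RPS3A probe was -0.11 and -0.07. RPS20, which differed by -0.11 and -0.04, holds SNORD54, which differed by -1.31 in Raji (called) and -0.51 in DG75 (not called). SNORD4B in RPL23A and SNORD36C in RPL7A were called in DG75, at -1.27 and -1.39, and differed by -0.69 and -0.62 in Raji, where neither was called.

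The guests of RPL13A, RPL3, RPS3 and RPS2 that were called in a treatment comparison were higher. RPL13A, a large subunit protein that also silences inflammatory messages after interferon gamma, holds 4 guests with kept probes. Its own probe read 11.91, 11.93 and 11.63 in the Raji controls and 11.75, 11.67 and 11.73 after Bay-11. SNORD34 read 6.22, 5.56 and 5.07 in those controls and 7.04, 6.79 and 7.25 after Bay-11, a difference of 1.41 ± 0.22 (adjusted p = 0.00704).

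SNORD35A, also in RPL13A, was higher by 0.91 after Bay-11 and 0.99 after TPCK in Raji and by 0.83 after Bay-11 in DG75, and these 3 were called. SNORD33 and SNORD32A of the same host were not called in any treatment comparison. SNORD43 in RPL3 was higher by 0.92 after TPCK in Raji and 1.04 after Bay-11 in DG75, and SNORD15B in RPS3 by 0.68 and 0.63 after Bay-11 in Raji and DG75. SNORA64 in RPS2 was higher by 1.05 after TPCK in DG75, while the RPS2 probe differed by 0.03. SNORA10, also in RPS2, was not called after TPCK, at -0.37 in Raji and -0.10 in DG75. After Bay-11 in Raji SNORA10 differed by 0.43.

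The small nucleolar RNA counts moved with single arrays in the Bay-11 comparisons. Without array 10 they were 5 and 2 higher in Raji and DG75, where 3.73% and 0.21% of all kept probes were called in either direction. Without array 12 they were 5 higher and 1 lower in DG75, where the share of all kept probes called also rose, as given above. Without array 14 no such probe was called after Bay-11 in DG75, and without array 4, 6, 16 or 18 there was 1 in Raji. After TPCK the counts lay between 5 and 6 in Raji and at 7 in DG75 when any 1 array of the comparison was left out. Apart from arrays 10 and 12, shares of all kept probes with 1 array left out are not given here. Those counts are not read as a result about these RNAs. Array 10 is in neither TPCK comparison but enters their shared spread. Without it SNORA66 in RPL5 was also called in Raji (-0.95, adjusted p = 0.00870 by limma). In DG75 SNORD4A and SNORD101 were also called, at -1.03 and -1.06 (adjusted p = 0.0295 and 0.0300 by limma). Of all kept probes, 0.561% in Raji and 0.617% in DG75 were then called after TPCK.

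**Figure D5:**
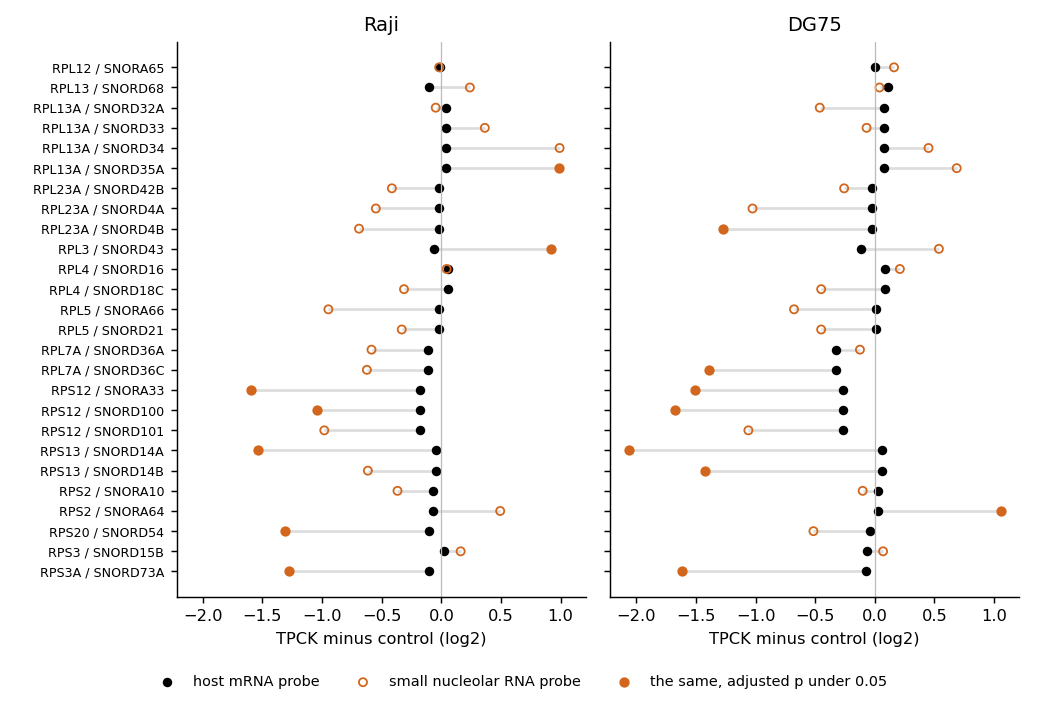
Log2 difference of TPCK minus control for 26 small nucleolar RNA probes (orange, filled where the adjusted p was below 0.05) and for the probe of the ribosomal protein gene that holds each (black), in Raji (left) and DG75 (right). The black points stay between -0.33 and 0.11, and orange points reach -2.06.

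Other genes of the pathway gave no calls after the treatments either. None of 106 kept probes of 76 mitochondrial ribosomal protein genes, 50 probes of 38 ribosome assembly factors or 37 probes of 21 other genes whose messages start with the oligopyrimidine element was called in any of the 4 treatment comparisons. Their median differences lay between -0.10 and 0.03. Between the untreated lines 22 mitochondrial ribosomal protein probes were higher and 11 lower in DG75, and 5 assembly factor probes were higher and 3 lower, beside the 32.8% of all kept probes called in that comparison. These counts do not set the mitochondrial genes apart from that background. Of the other oligopyrimidine genes, EEF1B2, a subunit of the exchange factor of elongation, was higher on 2 probes, and VIM (2 probes) and NAP1L1 (1 of its probes) were lower.

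As a check of the labels, the B cell markers CD79A, CD79B, MS4A1, CD22 and CD74, which are 5 of 7 listed markers with a named probe, were detected on all arrays of every group. Among markers of other cells, CD3D, the 1 named of 4 T cell markers, was detected on all arrays of each Raji group. Of 3 named myeloid markers, CD14 was detected on all arrays of every group and CSF1R on all arrays of each Raji group. LYZ was detected on all arrays of each DG75 group and of the Raji TPCK group. Of 7 fibroblast and epithelial markers, COL1A1 was detected on all 3 arrays of each Raji group, and EPCAM on all 3 DG75 TPCK arrays. Of 3 named red cell markers, HBG1 and HBG2 were detected on all 3 arrays of each Raji group. Between 13072 and 15903 probes were detected per array. The part of these signals in the ribosomal protein results was not tested.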

How the data were processed

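The deposited table holds log2 of raw signals and detection p-values per probe for 18 Illumina arrays, per the file headers. The authors' series matrix holds log2 values, of which 8 DG75 columns equal columns of that table within 1e-06 and 10 are centred near 0 with blanks; its further processing is not given in the sources used here. RNA was extracted with Trizol and labelled with a MessageAmp kit, per the labels' protocols. Probe symbols come from the platform annotation, with 17109 probes of 1 symbol, 3 of several and 32467 unnamed.

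Signals were background-corrected with normexp on detection p-values (offset 16) and quantile-normalised in limma 3.58.1 under R 4.3.3. Probes with detection p below 0.01 on at least 3 arrays were kept (17652 of 49576). One limma model with 6 group means over 18 arrays gave all comparisons, with Benjamini-Hochberg adjustment over all kept probes. The comparisons of the treated lines were added later, as were the settings without array 10 alone and those for small nucleolar RNAs. The fit was tested on simulated data. Arrays carry no counts, so 3 arrays a group limit the precision.

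Replicate numbers stand in the series matrix alone. The main fit did not use them, also not for the 8 DG75 columns that equal columns of the deposited table. Deviations of same-numbered arrays correlated at 0.119, 0.102 and 0.203 for Raji TPCK and Bay-11, and at 0.118, 0.124 and 0.204 for DG75 TPCK and control, over 0.1 in every pair, so the numbers were used as pairs there. Raji Bay-11 and Raji TPCK against control had pairs under 0.1.

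The members and the gene lists were chosen with earlier results of these data known. Named members are those called in a comparison (beyond 12, the 6 highest and 6 lowest), the 5 brightest and dimmest, those low on array 10, hosts of small nucleolar RNAs, called members of the lists, and genes with probes of opposite sign. RPL11, RPL26, RPS19 and RPL7 were added after their values were seen.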

Additional observations from a re-analysis of the deposited data

How the results depend on the processing

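Counts of called ribosomal protein probes are given first for the comparisons where they moved. With median centring they were 2 (Raji Bay-11), 4 (Raji TPCK), 1 (DG75 Bay-11) and 10 (untreated lines), and with no normalisation between arrays 1 (Raji Bay-11), 19 (Raji TPCK, where 32.7% of all kept probes were called) and 7 (lines). With array weights they were 2 (Raji Bay-11), 1 (DG75 Bay-11), 2 (Raji TPCK against Bay-11) and 30 (lines), and with 1 probe per gene 8 (lines). The share of all kept probes called with array weights is not given here, so those counts are not read as a result about these genes. Without arrays 7 and 10 they were 1 (Raji Bay-11), 1 (DG75 Bay-11) and 27 (lines), where 4.46%, 0.3% and 39.3% of all kept probes were called. Without array 10 alone, chosen after seeing the data, they were 1 (Raji Bay-11), 1 (DG75 Bay-11) and 27 (lines). There 3.73%, 0.21% and 38.3% of all kept probes were called. Leaving out 1 array at a time, among the arrays of each comparison only, gave 0 to 8 for DG75 Bay-11, 13 to 15 for the lines and 0 in the other comparisons. Shares of all kept probes in the fits for the lines are not given here, so that range is not read as a result about these genes.

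For small nucleolar RNA probes, median centring gave 8 (Raji Bay-11), and no normalisation 8 (Raji Bay-11), 1 (DG75 Bay-11) and 0 (DG75 TPCK). Array weights gave 6 (Raji Bay-11) and 13 (Raji TPCK), and a variance trend 1 (DG75 Bay-11). Leaving out arrays 7 and 10, or 10 alone, gave 5 (Raji Bay-11), where 4.46% and 3.73% of all kept probes were called. Shares with array weights and the variance trend are not given here, so those counts are not read as a result about these RNAs. Other counts that moved are described above. The range with 1 array of the comparison itself left out was 1 to 3 for Raji Bay-11 and 5 to 6 for Raji TPCK. For DG75 it was 0 to 6 after Bay-11 and 7 to 7 after TPCK. Shares of all kept probes are not given for most of these fits, so the ranges are not read as a result about these RNAs.

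In the series matrix the Raji Bay-11 count was 2 ribosomal protein probes with and without the replicate block, and 8 and 11 small nucleolar RNA probes. With the block the count was 2 small nucleolar RNA probes for Raji TPCK, against 6 without it, and 1 ribosomal protein probe (RPL32) for Raji TPCK against Bay-11. The block changed no count of ribosomal protein probes elsewhere. The cause of these changes was not tested. Shares of all series matrix probes called in these fits are not given here. The counts are therefore not read as a result about these genes or RNAs.

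For the single probes called between the lines, 206 of 246 alternative fits kept the call, 40 lost it with the same sign and 0 reversed. Calls of RPL32, RPS15A, RPL7 and RPL12 were lost most often, and those of RPS23, RPL28, RPL39L, RPLP1, RPS29 and the dimmer RPL34 probe in none of their alternatives. The precision is limited by 3 arrays a group and, for the dimmest probes, by a signal near background.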

Other observations

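A list of relatives of ribosomal protein genes outside the rule (RPL36AL, RPL26L1, RPL7L1, RPS27L, 2 other paralogs and FAU) had 10 kept probes of 7 genes, of which 0 were called in the 4 treatment comparisons. Other symbols that resemble members were not counted here. RPL7L1, a relative of RPL7, was lower in untreated DG75 than in untreated Raji on one probe, a difference of -0.89 ± 0.21 with an adjusted p of 0.00352 by limma. Its other, dimmer probe differed by -1.23, in the same direction. FAU, which encodes the small subunit protein S30 fused to a ubiquitin-like protein, differed between the untreated lines by 0.12 and after treatment by between 0.07 and 0.26. Both RPL36AL probes were higher in DG75 after Bay-11 than in Raji after Bay-11, by 0.42 and 0.31 (adjusted p = 0.0287 and 0.0272 by limma). In that comparison of the lines 38% of all kept probes were called. Between the untreated lines these probes differed by 0.36 and 0.19, and Bay-11 against control in DG75 by 0.11 and 0.10.

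Among the genes of the oligopyrimidine list, EEF1A1, the factor that brings transfer RNA to the ribosome, had probes at -1.22, -1.75 and -0.22 in the DG75 comparison of Bay-11 with control, which includes array 10, and none of the 3 was called. VIM, vimentin, was lower in untreated DG75 on both probes, with differences of -4.60 and -3.59, and both were called.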
